A study of Arabidopsis thaliana with 28 samples.

Results

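The 10 genes described here encode enzymes and 1 regulator of chlorophyll synthesis in *Arabidopsis thaliana*: *HEMA1* (AT1G58290), *GUN4* (AT3G59400), *GUN5*, also called *CHLH* (AT5G13630), *CHLI1* (AT4G18480), *CHLD* (AT1G08520), *CRD1* (AT3G56940), *CAO* (AT1G44446), *PORA* (AT5G54190), *PORB* (AT4G27440) and *PORC* (AT1G03630). They were taken by identifier from a table of 27371 genes, and all 10 were found. RNA of whole seedlings, 14 day old, was measured in 8 groups of 2 experiments. In the flg22 experiment, the group labelled *idd4* (the T-DNA line Salk_148352C) and WT (ColO) were treated for 1 h with 1 µM flg22, a flagellin peptide that the receptor FLS2 perceives, or were left untreated, with 3 samples per group in the labels. In the expressor experiment, 3 lines in ColO expressed a fluorescent fusion of IDD4 from the ubiquitin promoter pUBI10 and were set against a WT of their own, with 2 samples per group in the labels. *IDD4-DD* (RFP fusion) carried aspartic acid and *IDD4-AA* (RFP fusion) carried alanine in place of Serine-73 and Threonine-130, and *IDD4ox* (GFP fusion) carried the protein without these changes. A pUBI10 transgene is active in most tissues, and the labels do not say how many independent lines stand behind each name. No flg22 treatment is named in the labels of these 4 groups. The comparisons ask how the immune stimulus, the *idd4* line and the forms of IDD4, a zinc finger transcription factor of the INDETERMINATE DOMAIN family, relate to these genes.

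Chlorophyll is made in the chloroplast from glutamate. Glutamyl-tRNA reductase commits glutamate to aminolevulinic acid (ALA), from which protoporphyrin is built, and at protoporphyrin the pathway divides into an iron branch to heme and a magnesium branch to chlorophyll. Magnesium chelatase opens the magnesium branch, a cyclase closes an additional ring, protochlorophyllide oxidoreductase (POR) needs light to reduce protochlorophyllide, and an oxygenase turns part of the chlorophyllide a into chlorophyllide b. Several free intermediates are phototoxic, and the pathway is known to be controlled by light, by the circadian clock and by GOLDEN2-LIKE (GLK) transcription factors.

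The deposited values are fragments counted relative to transcript length and to the number of mapped fragments (FPKM), and each gene has 1 value per group in which replicates had been combined. No error, test or p-value can therefore be given, and a difference below is a description of 2 group values. Changes are differences of log2(FPKM + 1), which understate changes of genes near 1 FPKM. A gene was counted as higher or lower at 1.5-fold on that scale, a log2 difference of 0.585, among genes of at least 1 FPKM in either group. The log2 median of ratios between groups was -0.11 for flg22 in WT and lay between -0.07 and 0.06 elsewhere. In whole seedlings, fewer green cells and less RNA per green cell cannot be told apart.

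The labels were checked on *IDD4* itself. *IDD4* was at 22.4 FPKM in the group labelled *idd4* and 5.69 FPKM in WT with flg22, and at 23.0 FPKM in untreated *idd4* and 14.5 FPKM in untreated WT, so that its level goes against the label of the T-DNA line, and directions drawn from that line rest on the label. The paper describes the line as a homozygous knockout and reports that an *IDD4* construct returned its growth to that of WT. The combined values do not show which part of *IDD4* the reads came from. The flg22 marker genes were above WT in that line for 8 of 8 with flg22 and for 6 of 7 without it, 1 of them at 1.5-fold in each case. In the expressor experiment *IDD4* was at 198 FPKM in *IDD4-DD*, 71.6 FPKM in *IDD4-AA*, 197 FPKM in *IDD4ox* and 9.23 FPKM in WT, so that *IDD4-AA* carried less transcript than the other 2 lines. Its genomic neighbour *IDD5* was at 6.22 FPKM in *idd4* and 5.51 FPKM in WT with flg22, against 18.1 FPKM in untreated *idd4* and 18.5 FPKM in untreated WT. All 8 flg22 marker genes were at least 2-fold higher with flg22 in WT. The seedlings had green tissue, with 11 of 13 light-harvesting antenna genes at 1000 FPKM or more in WT of the expressor experiment, and roots, whose 12 marker genes, none at 0, summed to between 254 and 781 FPKM.

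The genes lie on 4 of the nuclear chromosomes (TAIR10.1): *HEMA1* at chr1:21623700-21626402, *CHLD* at chr1:2696381-2701022, *CAO* at chr1:16848308-16851271, *PORC* at chr1:907523-909650, *GUN4* at chr3:21948501-21949796, *CRD1* at chr3:21076505-21078443, *CHLI1* at chr4:10201672-10203469, *PORB* at chr4:13725546-13727440, *GUN5* at chr5:4387307-4392429 and *PORA* at chr5:21990864-21992814. *GUN4* shares 946 bases, 73% of its span, with AT3G59410 on the opposite strand. The sources used here do not say whether strand was used in counting, so that reads of this pair cannot be told apart, although AT3G59410 was at only 1.80 to 2.58 FPKM. *PORB* shares 71 bases with AT4G27450 on the opposite strand, which was at 217 FPKM in *idd4* and 190.2 FPKM in WT with flg22, against 123 FPKM in untreated *idd4* and 164 FPKM in untreated WT, above *PORB* in all 4 groups. In the expressor groups it was at 5.07 to 14.6 FPKM. The part of these shared bases in the *PORB* values was not tested, and paralogs such as *PORA* and *PORB* can share reads.

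In the 250 bases before each gene start, 4 motifs were searched on both strands. The G-box CACGTG, bound by light-regulated factors such as HY5 and the PIFs, was present before *CRD1* and *CAO*, in 2 of 10 members against 6.49% of the 27443 promoters. CCAATC, linked to GLK factors, was present before *GUN4* and *PORB* (10.2% of promoters). AATATCT, the core of the evening element of clock-controlled genes, was present before *GUN4*, *PORA* and *PORB* (10% of promoters). AGACAA, a form of the *ID1* motif that IDD proteins bind, was present before *CRD1* and *PORA* (19.6% of promoters). A match is a string of letters and not a binding site. The 4 stretches below show these motifs where the window lies outside neighbouring genes. They are from RefSeq, TAIR10.1, written 5′ to 3′ on the strand of the gene and ending at the base before its start, with motif matches in capitals (TTGTCT before *PORA* is AGACAA on the other strand).
CAO: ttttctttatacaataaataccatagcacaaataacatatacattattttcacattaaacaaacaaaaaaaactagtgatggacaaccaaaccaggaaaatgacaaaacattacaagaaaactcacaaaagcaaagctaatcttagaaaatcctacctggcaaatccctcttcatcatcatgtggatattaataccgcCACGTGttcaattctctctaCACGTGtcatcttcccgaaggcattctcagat
CRD1: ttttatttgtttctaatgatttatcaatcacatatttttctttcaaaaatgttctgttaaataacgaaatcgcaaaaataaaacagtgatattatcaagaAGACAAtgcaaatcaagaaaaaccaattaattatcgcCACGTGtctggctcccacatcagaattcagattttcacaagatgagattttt
PORA: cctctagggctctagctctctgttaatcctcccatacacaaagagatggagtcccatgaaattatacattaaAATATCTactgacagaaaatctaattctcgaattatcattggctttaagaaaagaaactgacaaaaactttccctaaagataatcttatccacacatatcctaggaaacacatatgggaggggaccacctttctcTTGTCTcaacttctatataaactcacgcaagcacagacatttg
PORB: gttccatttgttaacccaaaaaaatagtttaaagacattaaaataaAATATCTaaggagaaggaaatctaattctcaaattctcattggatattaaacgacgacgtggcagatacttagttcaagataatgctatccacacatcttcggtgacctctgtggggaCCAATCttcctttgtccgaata
They are chr1:16851272-16851521 (minus strand) for *CAO*, chr3:21076316-21076504 (plus strand) for *CRD1*, chr5:21992815-21993064 (minus strand) for *PORA* and chr4:13725360-13725545 (plus strand) for *PORB*. The G-boxes begin 52 and 32 bases before the *CAO* start and 52 bases before the *CRD1* start.

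*CRD1*, the catalytic subunit of the cyclase, was the highest member in all 4 groups of the flg22 experiment and in *IDD4-DD*, and *PORB* was the highest in *IDD4-AA*, *IDD4ox* and their WT. *PORA* was the lowest in all 8 groups, and *CHLD* the lowest after it in the flg22 experiment. Together the members held 0.156% of all FPKM in *idd4* with flg22 and 0.190% in WT with flg22, against 0.270% in untreated *idd4* and 0.234% in untreated WT. In the expressor experiment they held 0.234% in *IDD4-DD*, 0.240% in *IDD4-AA*, 0.315% in *IDD4ox* and 0.253% in WT. These shares move with a few abundant RNAs, since the 10 highest nuclear genes held between 19.9% and 47.0% of the nuclear FPKM. The 2 tables were normalised apart from each other, so that levels are read within an experiment only. Without replicate values it cannot be said which neighbours in these orders differ beyond their spread.

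**Figure D1:**
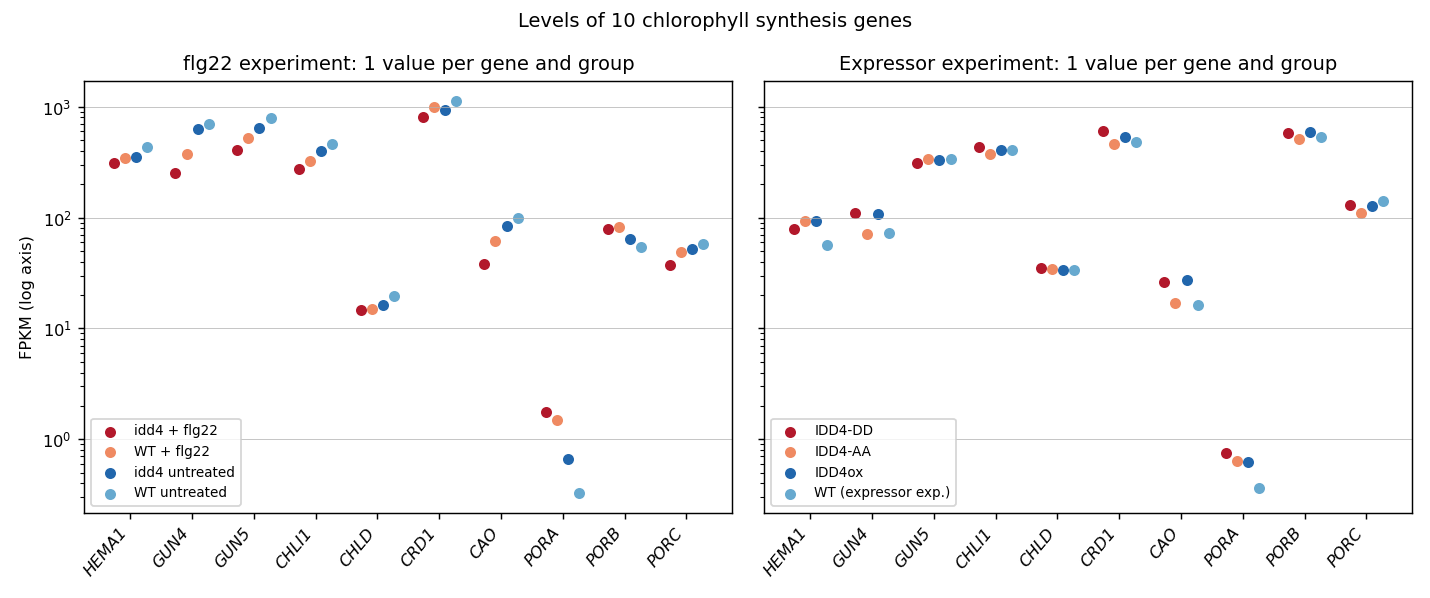
FPKM of the 10 members on a log axis in the flg22 experiment (left) and the expressor experiment (right), with 1 combined value per gene and group and no error bar. *CAO* spreads from 38.0 to 99.8 FPKM over the flg22 experiment, *PORA* stays below 2 FPKM, and *CHLD* lies between 33.7 and 34.9 FPKM in all 4 expressor groups.

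*HEMA1* encodes the main glutamyl-tRNA reductase of green tissue. It was at 313 FPKM in *idd4* and 341 FPKM in WT with flg22, against 351 FPKM in untreated *idd4* and 429 FPKM in untreated WT. Its flg22 changes, -0.16 in *idd4* and -0.33 in WT, did not reach 1.5-fold. Among the expressors *HEMA1* was at 79.4 FPKM in *IDD4-DD*, 92.9 FPKM in *IDD4-AA*, 93.7 FPKM in *IDD4ox* and 56.5 FPKM in WT. All 3 lines were above WT, *IDD4ox* by 0.72, *IDD4-AA* by 0.71 and *IDD4-DD* by 0.48 on the log2 scale, and *HEMA1* was the only member at 1.5-fold in *IDD4-AA*. Its paralog *HEMA2*, which encodes another glutamyl-tRNA reductase and is known for roles outside of greening, behaved otherwise. *HEMA2* was at 251 FPKM in *idd4* and 163 FPKM in WT with flg22, against 9.26 FPKM in untreated *idd4* and 10.9 FPKM in untreated WT. It thus supplied 44.5% of the summed *HEMA1* and *HEMA2* FPKM in *idd4* and 32.3% in WT with flg22, against 2.57% in untreated *idd4* and 2.48% in untreated WT.

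Magnesium chelatase has 3 subunits, of which CHLH (GUN5) binds protoporphyrin and CHLI and CHLD form the ATP-driven motor, and GUN4 binds porphyrins and stimulates the enzyme. *GUN5* was at 403 FPKM in *idd4* and 522 FPKM in WT with flg22, against 648 FPKM in untreated *idd4* and 795 FPKM in untreated WT. *CHLI1* had 271 FPKM in *idd4* and 324 FPKM in WT with flg22, against 400.4 FPKM in untreated *idd4* and 457 FPKM in untreated WT. *CHLD* had 14.5 FPKM in *idd4* and 14.9 FPKM in WT with flg22, against 16.3 FPKM in untreated *idd4* and 19.6 FPKM in untreated WT. Each subunit was thus lowest in *idd4* with flg22 and highest in untreated WT. The flg22 change of *GUN5*, -0.68 in *idd4* and -0.61 in WT, passed 1.5-fold, while those of *CHLI1* (-0.56 in *idd4* and -0.49 in WT) and *CHLD* (-0.16 in *idd4* and -0.38 in WT) did not.

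*GUN4* moved more than the subunits. It was at 252 FPKM in *idd4* and 372 FPKM in WT with flg22, against 626 FPKM in untreated *idd4* and 703 FPKM in untreated WT. This amounts to 2.49-fold lower with flg22 in *idd4* and 1.89-fold lower in WT. The ratio of *GUN4* to *CHLH* was 0.624 in *idd4* and 0.712 in WT with flg22, against 0.965 in untreated *idd4* and 0.884 in untreated WT. Among the expressors, *GUN4* was at 110.0 FPKM in *IDD4-DD*, 71.8 FPKM in *IDD4-AA*, 107 FPKM in *IDD4ox* and 72.2 FPKM in WT, so that *IDD4-AA* stood level with WT and the other 2 lines above it. *GUN5* stayed between 311 and 338 FPKM, *CHLI1* between 371 and 435 FPKM and *CHLD* between 33.7 and 34.9 FPKM in these 4 groups. None of the 3 subunits passed 1.5-fold in any expressor comparison. The ratio of *GUN4* to *CHLH* was 0.354 in *IDD4-DD*, 0.212 in *IDD4-AA*, 0.323 in *IDD4ox* and 0.215 in WT.

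*CRD1* was at 809.7 FPKM in *idd4* and 997 FPKM in WT with flg22, against 926 FPKM in untreated *idd4* and 1133 FPKM in untreated WT. Its flg22 changes were small, -0.19 in either genotype, and the *idd4* values were below WT by a similar amount with flg22 (-0.30) and without it (-0.29). Expressor values of *CRD1* were 599 FPKM in *IDD4-DD*, 462 FPKM in *IDD4-AA*, 537 FPKM in *IDD4ox* and 483 FPKM in WT, with no difference at 1.5-fold.

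The POR isoforms catalyse the light-dependent step. PORA is known from etiolated seedlings and declines in light, while PORB and PORC serve green tissue. *PORA* was at 1.76 FPKM in *idd4* and 1.49 FPKM in WT with flg22, against 0.657 FPKM in untreated *idd4* and 0.327 FPKM in untreated WT. As plain ratios these were 2.67-fold in *idd4* and 4.55-fold in WT, near the floor of 1 FPKM and open to reads shared with *PORB*. *PORB* was at 78.0 FPKM in *idd4* and 81.4 FPKM in WT with flg22, against 64.6 FPKM in untreated *idd4* and 54.4 FPKM in untreated WT. *PORC* had the other direction, at 37.3 FPKM in *idd4* and 49.4 FPKM in WT with flg22, against 52.0 FPKM in untreated *idd4* and 57.4 FPKM in untreated WT. *PORA* and *PORB* were thus the only members with higher values after flg22 in both genotypes, and of these only *PORA* passed 1.5-fold, while *PORB* in WT lay just short of it at 0.57. *PORA* was compared only through its values with flg22, since its untreated values were below the floor of 1 FPKM. For equal nuclear sums *PORB* in *idd4* turned to -0.12.

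The share of *PORB* in the summed POR FPKM was 66.6% in *idd4* and 61.6% in WT with flg22, against 55.1% in untreated *idd4* and 48.5% in untreated WT, although the sum itself lay between 112 and 132 FPKM in these 4 groups. The expressor groups had far more *PORB* than *PORC*, with *PORB* at 579.9 FPKM in *IDD4-DD*, 509.8 FPKM in *IDD4-AA*, 589.9 FPKM in *IDD4ox* and 531 FPKM in WT. *PORC* was at 131 FPKM in *IDD4-DD*, 110.3 FPKM in *IDD4-AA* and 127 FPKM in *IDD4ox*, against 141 FPKM in WT. The share of *PORB* was 81.5% in *IDD4-DD*, 82.1% in *IDD4-AA* and 82.2% in *IDD4ox*, against 79.0% in WT. *PORA* was at 0.759 FPKM in *IDD4-DD*, 0.638 FPKM in *IDD4-AA* and 0.617 FPKM in *IDD4ox*, against 0.360 FPKM in WT, below the floor in all 4 groups.

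**Figure D2:**
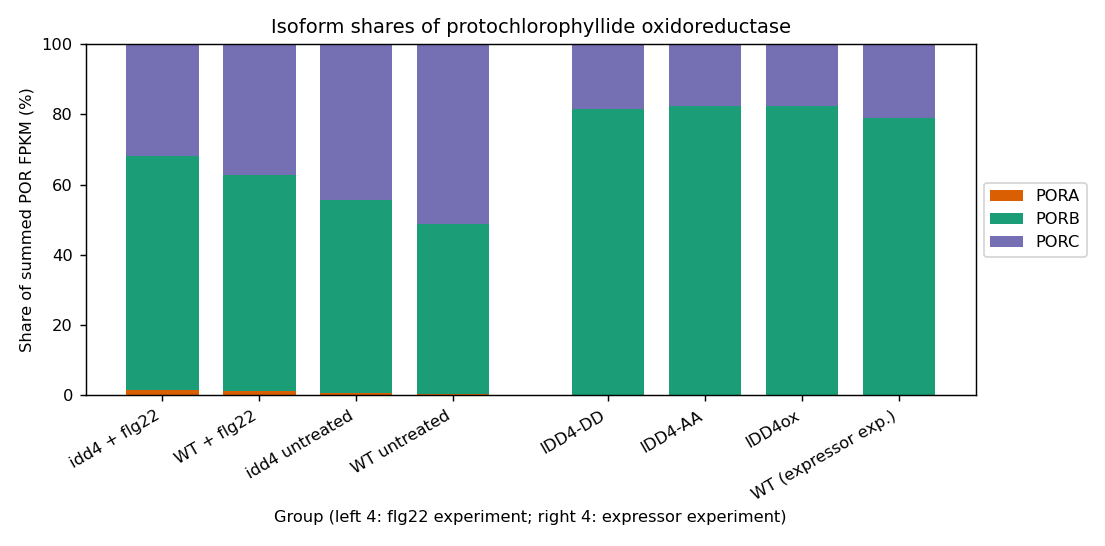
Share of the summed POR FPKM (percent, axis from 0) held by *PORA*, *PORB* and *PORC* in each of the 8 groups, with 1 combined value per group. The *PORB* part is 66.6% in *idd4* with flg22 and 48.5% in untreated WT, and between 79.0% and 82.2% in the expressor experiment.

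*CAO* encodes chlorophyllide a oxygenase, which sets the amount of chlorophyll b and with it the size of the antenna. It was at 38.0 FPKM in *idd4* and 61.5 FPKM in WT with flg22, against 84.3 FPKM in untreated *idd4* and 99.8 FPKM in untreated WT. It was 2.22-fold lower with flg22 in *idd4* and 1.62-fold lower in WT. Expressor lines split on *CAO*, which was at 26.2 FPKM in *IDD4-DD*, 16.8 FPKM in *IDD4-AA*, 27.3 FPKM in *IDD4ox* and 16.2 FPKM in WT. As with *GUN4*, *IDD4-AA* stood level with WT (0.05 on the log2 scale), and *IDD4ox* (0.72) and *IDD4-DD* (0.66) stood above it.

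Over the whole set, flg22 in *idd4* left 8 of 10 members lower and 2 higher, with *GUN4* (-1.31), *CAO* (-1.13) and *GUN5* (-0.68) lower at 1.5-fold and *PORA* (0.73) higher. The same 4 genes were past 1.5-fold in WT, *GUN4* at -0.92, *CAO* at -0.69, *GUN5* at -0.61 and *PORA* at 0.91. Of all genes compared in *idd4*, 19.4% were lower and 20.4% were higher by this measure, and in WT 22.2% and 17.1%, so that 3 lower and 1 higher of 10 are not far from the background. The higher member, *PORA*, passed the floor of 1 FPKM only with flg22. At a floor of 5 FPKM, 0 of 9 members were higher and 3 were lower in each genotype. The median of the members was -0.33 in *idd4*, against -0.06 over all genes compared, and -0.35 in WT, against -0.16. These medians depend on scaling, with -0.71 in *idd4* and -0.18 in WT for equal nuclear sums and -0.32 in *idd4* and -0.25 in WT for the median of ratios, so that the near equality of the genotypes is not stable. *GUN5* (-0.50) and *CAO* (-0.58) in WT fall short of 1.5-fold, and *PORB* (0.68) passes it, once values are scaled by the median of ratios. In *idd4*, *PORA* falls short (0.50) and *CHLI1* (-0.95) and *PORC* (-0.85) pass when values are scaled to equal nuclear sums.

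Of 11 further genes of the magnesium branch, 3 were lower at 1.5-fold in each genotype and none was higher, not far from the background of 19.4% in *idd4* and 22.2% in WT. They included AT2G35260, annotated as a CAAX protease family protein, at 43.1 FPKM in *idd4* and 54.2 FPKM in WT with flg22, against 92.3 FPKM in untreated *idd4* and 106 FPKM in untreated WT. *PCB2*, the divinyl reductase gene, had 50.0 FPKM in *idd4* and 58.0 FPKM in WT with flg22, against 85.0 FPKM in untreated *idd4* and 91.6 FPKM in untreated WT. In contrast *CHLM*, the methyltransferase gene between chelatase and cyclase, had 250.3 FPKM in *idd4* and 289.7 FPKM in WT with flg22, against 243 FPKM in untreated *idd4* and 268 FPKM in untreated WT.

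Among 14 expressed genes of the ALA and protoporphyrin steps, none was lower at 1.5-fold in either genotype, and *HEMA2* was the only gene higher in WT, with 3 genes higher in *idd4*. In the branch to heme, bilins and siroheme, 1 of 7 genes was higher and 2 were lower in each genotype. The ferrochelatase gene *FC1* was at 61.0 FPKM in *idd4* and 50.3 FPKM in WT with flg22, against 13.6 FPKM in untreated *idd4* and 14.2 FPKM in untreated WT, whereas its paralog *FC2*, known for its part in photosynthetic tissue, was at 8.45 FPKM in *idd4* and 8.67 FPKM in WT with flg22, against 14.1 FPKM in untreated *idd4* and 18.3 FPKM in untreated WT. In either pair of paralogs, *HEMA2* and *HEMA1* as well as *FC1* and *FC2*, the paralog known mainly from functions outside of greening was the one with more FPKM with flg22 than without it. Of 11 genes of chlorophyll breakdown compared, 4 were lower and 1 was higher in each genotype. Over all genes compared, 19.4% were lower and 20.4% were higher in *idd4*, and 22.2% and 17.1% in WT. The counts of the heme branch are not far from this background. *NYE1*, which encodes a magnesium dechelatase of chlorophyll a, was at 36.3 FPKM in *idd4* with flg22, against 14.2 FPKM in untreated *idd4*. In WT it was at 25.98 FPKM with flg22 and 15.5 FPKM untreated. Among the lower breakdown genes, *CYP89A9* was at 6.06 FPKM in *idd4* and 5.86 FPKM in WT with flg22. Its untreated values were 13.4 FPKM in *idd4* and 17.2 FPKM in WT. *TIC55* was at 42.7 FPKM in *idd4* and 53.7 FPKM in WT with flg22. Its untreated values were 82.96 FPKM in *idd4* and 101.7 FPKM in WT.

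Of 18 regulators of chlorophyll genes, 9 were lower at 1.5-fold and 1 was higher with flg22 in each genotype, with medians of -0.58 in *idd4* and -0.70 in WT. The background was 19.4% lower and 20.4% higher in *idd4*, and 22.2% and 17.1% in WT. *GLK2* was at 34.1 FPKM in *idd4* and 42.4 FPKM in WT with flg22, against 152 FPKM in untreated *idd4* and 187 FPKM in untreated WT. *CGA1*, a GATA factor of chloroplast development, was at 1.89 FPKM in *idd4* and 3.31 FPKM in WT with flg22, against 24.3 FPKM in untreated *idd4* and 33.3 FPKM in untreated WT. *HYH*, the homolog of the light regulator HY5, was at 18.9 FPKM in *idd4* and 15.1 FPKM in WT with flg22, against 55.9 FPKM in untreated *idd4* and 75.1 FPKM in untreated WT. Of 13 light-harvesting antenna genes, whose proteins bind the finished pigment, 1 was higher at 1.5-fold in *idd4* and 3 in WT, on backgrounds of 20.4% and 17.1%, and none was lower. Values were above 0 for 11 of 13 in each genotype, with medians of 0.28 in *idd4* and 0.42 in WT, but for equal nuclear sums the *idd4* median was -0.11 and only 3 of 13 were above 0.

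Clock genes moved with flg22 as well. *TOC1*, an evening gene, was at 38.7 FPKM in *idd4* and 30.1 FPKM in WT with flg22, against 6.75 FPKM in untreated *idd4* and 5.71 FPKM in untreated WT, and the morning gene *LHY* was at 26.2 FPKM in *idd4* and 28.3 FPKM in WT with flg22, against 87.2 FPKM in untreated *idd4* and 103 FPKM in untreated WT. Of 10 clock genes compared, 3 were higher and 5 were lower at 1.5-fold in each genotype. Backgrounds were 20.4% higher and 19.4% lower in *idd4*, and 17.1% and 22.2% in WT. Root marker sums were 254 FPKM in *idd4* and 276 FPKM in WT with flg22, against 332 FPKM in untreated *idd4* and 366 FPKM in untreated WT. Most of these sums came from *BGLU23*, at 169.8 FPKM in *idd4* and 167 FPKM in WT with flg22, against 206 FPKM in untreated *idd4* and 243 FPKM in untreated WT, and from *IRT1*, at 23.7 FPKM in *idd4* and 33.6 FPKM in WT with flg22, against 83.5 FPKM in untreated *idd4* and 74.3 FPKM in untreated WT. Gene by gene the root markers did not go down together. At 1.5-fold, *IRT1* alone was lower in each genotype, while 3 of the 10 compared in *idd4* (median 0.12) and 3 of the 11 in WT (median 0.37) were higher. The part of clock time and of tissue shares in the changes of the members was not tested.

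**Figure D3:**
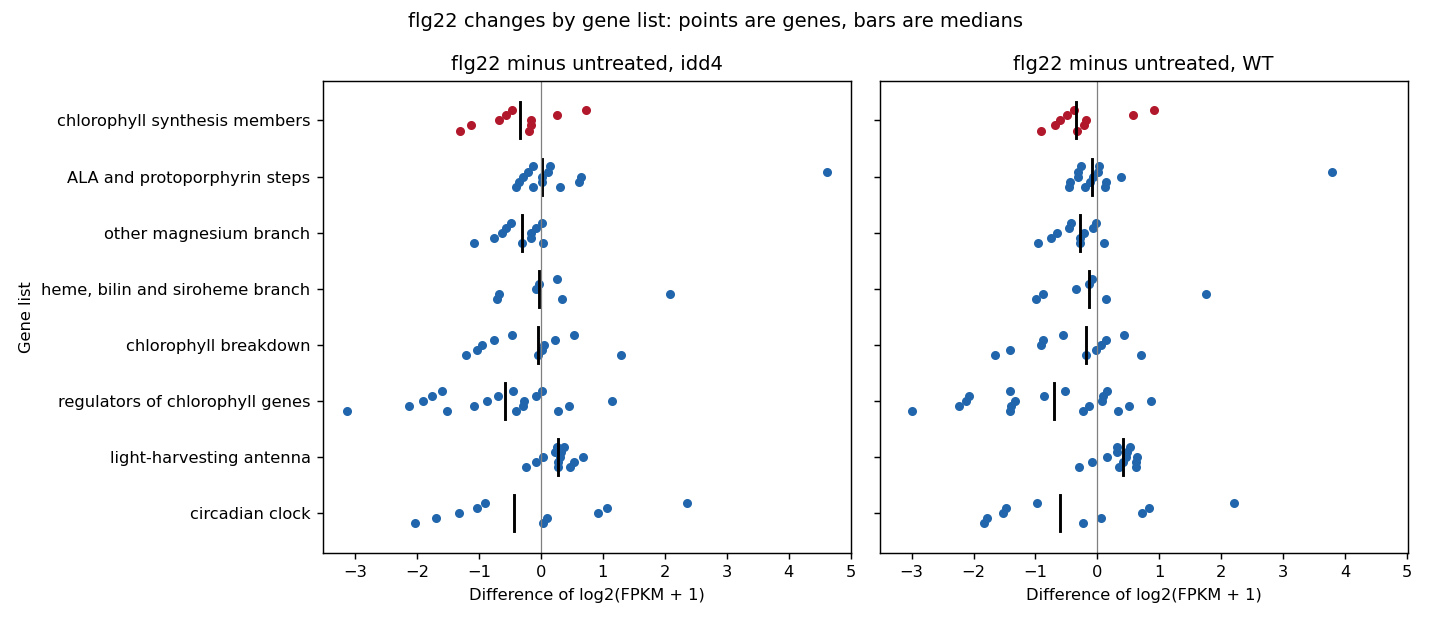
Difference of log2(FPKM + 1) between flg22 and untreated seedlings for *idd4* (left) and WT (right), by gene list, with a point for each gene of at least 1 FPKM in either group and a bar at the median. The members have medians of -0.33 in *idd4* and -0.35 in WT, the regulators -0.58 and -0.70, and the antenna 0.28 and 0.42 (-0.11 in *idd4* for equal nuclear sums). *HEMA2* is the point at the far right of the ALA and protoporphyrin list.

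Between genotypes, the values of untreated *idd4* were below WT for 8 of the 9 members that passed the floor, between -0.29 and -0.14, and *PORB* was above it at 0.24. No member reached 1.5-fold, where 2.02% of all genes compared were lower and 1.59% were higher. The median of the 9 members was -0.24, against -0.05 over all genes. All 13 antenna genes were also below WT, with a median of -0.26, and so were 15 of 18 regulators, with a median of -0.15. The median of ratios between these 2 groups was itself -0.07, and scaling to equal nuclear sums put all 9 members, all 13 antenna genes and all 18 regulators above WT, with a median of 0.26 over the members.

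After flg22, 9 of 10 members had lower values in *idd4* than in WT. *CAO* was lower at 1.5-fold (-0.68), *GUN4* lay just outside it (-0.56), and *PORC* (-0.39) and *GUN5* (-0.37) came next. None was higher at 1.5-fold. The background was 1.72% of genes lower and 3.15% higher. *CAO* is named here as the lowest of the 10 members, and 1.21% of the genes compared lay as low or lower. The median of the members was -0.28, against 0.06 over all genes. The antenna genes again lay below WT in 13 of 13 cases, with a median of -0.34, whereas the ALA and protoporphyrin steps had a median of 0.09. *GNC*, a GATA factor related to *CGA1*, was the regulator with the largest difference, at 6.45 FPKM in *idd4* and 11.1 FPKM in WT.

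The flg22 change in *idd4* minus that in WT was below 0 for 8 of 10 members, at -0.44 for *CAO*, -0.39 for *GUN4* and -0.30 for *PORB*, and above 0 for *CHLD* (0.22) and *HEMA1* (0.17). None of these differences reached 1.5-fold, where 6.58% of all genes were more positive and 2.75% were more negative in *idd4*. The median difference was -0.13 over the members and 0.11 over all genes compared. The 4 comparisons of this experiment share groups, so that they are not separate evidence.

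**Figure D4:**
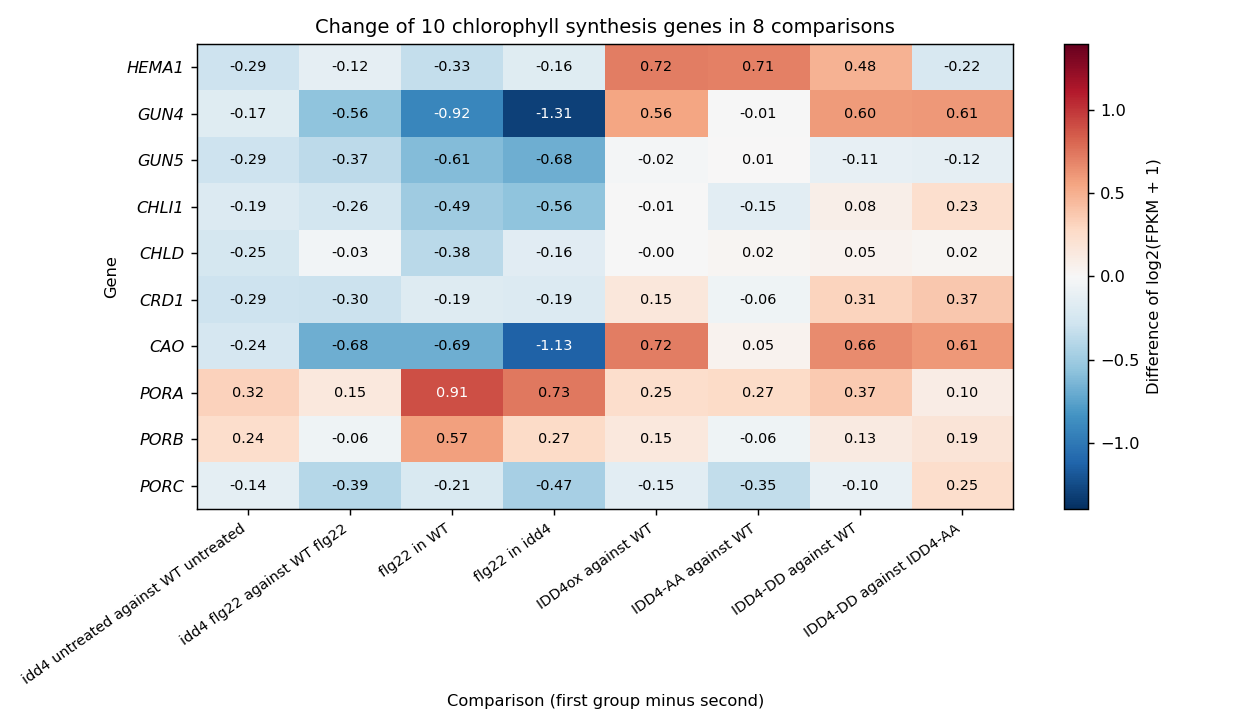
Difference of log2(FPKM + 1), first named group minus second, for the 10 members (rows) in 8 comparisons (columns), on a colour scale from blue (lower) to red (higher). The flg22 columns hold the lowest values, -1.31 for *GUN4* and -1.13 for *CAO* in *idd4*, and *HEMA1*, *GUN4* and *CAO* hold the highest values of the expressor columns. *PORA* did not pass the floor of 1 FPKM in untreated *idd4* against WT or in the expressor columns.

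In the expressor experiment, *IDD4-DD* had *GUN4* (0.60) and *CAO* (0.66) higher than WT at 1.5-fold, 2 of the 9 members above the floor, and none lower. The background was 3.15% of genes higher and 2.47% lower. *IDD4-AA* had *HEMA1* (0.71) higher and none lower, on a background of 1.85% higher and 2.12% lower. *IDD4ox* had *HEMA1* (0.72) and *CAO* (0.72) higher, with *GUN4* just outside at 0.56, and none lower, on a background of 3.94% higher and 2.49% lower. The 3 comparisons share the same WT values, so that a low WT value alone would raise all 3, which for *HEMA1* cannot be told apart from a difference of the lines. The medians of the 9 members were 0.13 in *IDD4-DD*, -0.01 in *IDD4-AA* and 0.15 in *IDD4ox*, against 0.03, 0.03 and 0.07 over all genes compared.

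*IDD4-DD* set against *IDD4-AA*, a comparison without WT, had *GUN4* (0.61) and *CAO* (0.61) higher at 1.5-fold and none lower, where 2.7% of all genes were higher and 1.43% were lower. *CRD1* followed at 0.37, and *HEMA1* was below *IDD4-AA* at -0.22. AT2G35260 of the magnesium branch had 75.3 FPKM in *IDD4-DD* and 50.4 FPKM in *IDD4-AA*, and *NYC1*, the chlorophyll b reductase gene, had 76.1 FPKM in *IDD4-DD* and 138 FPKM in *IDD4-AA*. The phospho-modified residues and the amount of transcript differ together between these lines, 198 FPKM of *IDD4* in *IDD4-DD* and 71.6 FPKM in *IDD4-AA*, and cannot be told apart. The paper reports that its *IDD4-AA* and *IDD4-DD* lines were chosen for similar *IDD4* transcript and had equal protein on an immunoblot. The transcript values here differ from that account, and protein was not measured in these data. Scaled to equal nuclear sums, *GUN4* and *CAO* in *IDD4-DD* were below 1.5-fold against *IDD4-AA* (0.38 and 0.39) and against WT (0.34 and 0.41).

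Some regulators and clock genes also had higher values in *IDD4-DD* and *IDD4ox* than in *IDD4-AA* and WT, and others did not. *TOC1* was at 75.9 FPKM in *IDD4-DD*, 98.0 FPKM in *IDD4-AA* and 82.1 FPKM in *IDD4ox*, against 94.2 FPKM in WT. Below WT were 8 of 18 regulators and 4 of 10 clock genes in *IDD4-DD*, and 3 of 18 and 3 of 10 in *IDD4ox*. Of 18 regulators, 2 were higher than WT at 1.5-fold in *IDD4-DD*, 0 in *IDD4-AA* and 2 in *IDD4ox* (1 in *IDD4-DD* and 3 in *IDD4ox* for equal nuclear sums). *GLK2* was at 41.7 FPKM in *IDD4-DD*, 27.5 FPKM in *IDD4-AA*, 40.3 FPKM in *IDD4ox* and 22.6 FPKM in WT. *RVE1*, the other regulator called in these lines and a MYB-like factor related to the clock, was at 2.43 FPKM in *IDD4-DD*, 1.24 FPKM in *IDD4-AA* and 3.44 FPKM in *IDD4ox*, against 1.19 FPKM in WT. Of the clock list, 1 of 10 genes was higher at 1.5-fold in *IDD4-DD* (*CCA1*), 0 of 7 in *IDD4-AA* and 2 of 10 in *IDD4ox* (*CCA1* and *PRR9*). The numbers compared differ because of the floor. In WT and in *IDD4-AA*, 7 of the 11 clock genes were at 1 FPKM or more, against 10 in *IDD4-DD* and in *IDD4ox*. *CCA1* thus passed the floor only through the lines in which it was higher, so that its calls cannot be weighed against *IDD4-AA*. *CCA1*, a morning gene, was at 2.08 FPKM in *IDD4-DD*, 0.838 FPKM in *IDD4-AA* and 2.90 FPKM in *IDD4ox*, against 0.697 FPKM in WT. *PRR9* and *RVE8* were at most 2.06 FPKM and *LHY* was below 1 FPKM in all 4 groups, so that the morning genes were near or below the floor in this experiment. In the flg22 experiment *CCA1* was at 143 FPKM in untreated *idd4* and 166 FPKM in untreated WT. That table was normalised apart, so that no size of difference between the experiments is drawn from these values. Root marker sums were 492 FPKM in *IDD4-DD*, 571 FPKM in *IDD4-AA* and 613 FPKM in *IDD4ox*, against 781 FPKM in WT. Of 10 root markers compared, 6 were lower than WT at 1.5-fold in *IDD4-DD*, 1 in *IDD4-AA* and 4 in *IDD4ox*, and none was higher. The backgrounds were 2.47%, 2.12% and 2.49% lower, and the marker medians -0.77, -0.47 and -0.50. The part of sampling time and of root share in the values of *GUN4*, *CAO* and *HEMA1* was not tested.

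**Figure D5:**
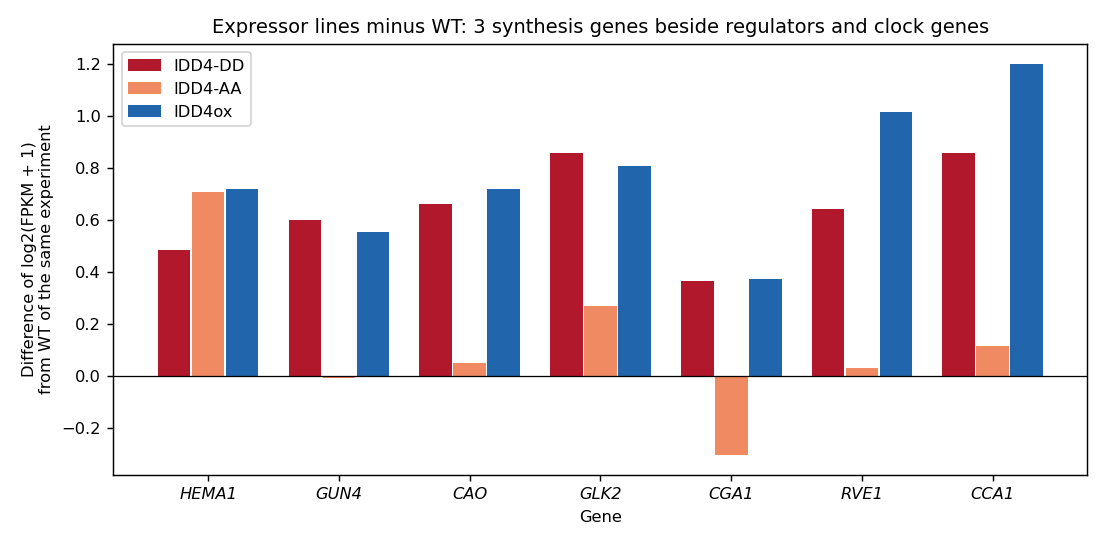
Difference of log2(FPKM + 1) from WT of the expressor experiment in *IDD4-DD*, *IDD4-AA* and *IDD4ox* for 3 members, the regulators *GLK2* and *CGA1*, *RVE1* and the clock gene *CCA1*, with 1 combined value per bar and no error. *IDD4-DD* and *IDD4ox* lie above *IDD4-AA* for all of these genes except *HEMA1*, for which *IDD4-DD* (0.48) lies below *IDD4-AA* (0.71). The genes beside the members were picked and do not stand for their lists. In *IDD4-DD* against *IDD4-AA*, 12 of 18 regulators were higher and 6 were lower. Of 10 clock genes compared, 5 were higher and 5 were lower. *RVE1* and *CCA1* lay near or below the floor of 1 FPKM.

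Likeness of pattern was measured as Pearson's r over the 8 group values of log2(FPKM + 1), centred within each experiment. These values share groups and are dominated by flg22, so that r is a description without a p-value. *GUN4* and *CAO* were the most alike pair of members (r = 0.982), followed by *GUN4* and *CHLI1* (r = 0.939). *GUN5* ran opposite to *PORA* (r = -0.941) and *PORB* (r = -0.857), and *PORA* and *PORB* ran together (r = 0.909). *PORA* lay near or below the floor of 1 FPKM and can share reads with *PORB*, and both limit all of its r values. *PORA* and *PORB* had negative r with every member except each other. *HEMA1* had no close partner among the members, with its highest r at 0.590 (*CAO*). Each member was also set against genes of at least 5 FPKM in a group whose range over the groups was at least 0.5 of its own. These were between 6737 genes (for *GUN4*) and 13955 genes (for *CHLD*). The highest r of so many genes over 8 values is likely to be high by selection. Among the genes compared, the nearest to *GUN4* was AT2G35260 (r = 0.991), and the nearest to *CAO* was *PKS2* (r = 0.986), with *GUN4* next. The nearest to *CHLI1* was *STO* (r = 0.997), a B-box gene of light signalling. The nearest to *GUN5* was AT4G14360 (r = 0.991), to *CHLD* AT3G24190 (r = 0.990), to *CRD1* AT5G07860 (r = 0.983), to *HEMA1* *NTMC2T5.1* (r = 0.972), to *PORA* AT5G42360 (r = 0.996), to *PORB* AT5G17850 (r = 0.983) and to *PORC* *AGP22* (r = 0.965).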

How the data were processed

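RNA of 20 samples in 8 groups was sequenced (3 per group in the flg22 and 2 in the expressor experiment by the labels, 3 in both by the methods), and 8 chromatin samples were not analysed here. The authors trimmed paired-end reads with Trimmomatic, aligned them to TAIR10 with TopHat and computed expression with Cufflinks, and they deposited 1 linear FPKM value per gene and group. Depth per sample is unknown. Of 27371 identifiers in each table, 21642 stood out of alphabetical place beside the values. Identifiers were sorted first, as the values had been seen to require, since IDD4 in *IDD4ox* over WT was then 21.3, against 0.657 as deposited, and 1900 of 1900 genes equalled the study's heat map matrix, within a relative tolerance of 0.001, against 534 as deposited. Names came from TAIR10.1 (26703 identifiers matched), and coordinates and promoters from the same reference. A pseudocount of 1 FPKM, a floor of 1 FPKM and a fold of 1.5 were used in Python 3.11.15 with pandas 2.3.3 and numpy 2.4.6, and the counting was tested on simulated data. Alternatives were a pseudocount of 0.1, no floor or one of 5 FPKM, scaling by the median of ratios or to equal nuclear sums, *CHLI1* summed with *CHLI2*, and *PORB* and *PORC* without *PORA*. Members and lists were chosen with earlier results of these data known. Named were all members, *IDD4* and its neighbour, from each list and comparison up to 3 genes that differed most and had 5 FPKM or more in a group, and the genes most like each member. *CHLM*, *CCA1* and *RVE1* in the expressor lines were added after their values were seen.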

Additional observations from a re-analysis of the deposited data

How the results depend on the processing

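No paired analysis was possible because the tables hold 1 combined value per gene and group, and for the same reason no replicate could be left out. No member past 1.5-fold changed direction under any alternative, but smaller differences did for equal nuclear sums, among them *PORB* with flg22 in *idd4* (-0.12) and 8 members in untreated *idd4* against WT. Under scaling by the median of ratios, the count of members past 1.5-fold was 2 for *idd4* against WT with flg22 (1 as reported) and 1 for *IDD4-DD* against WT (2 as reported, *GUN4* at 0.58 instead of 0.60). Scaling to equal nuclear sums gave 1 for untreated *idd4* against WT (0 as reported), 2 for *idd4* against WT with flg22, 0 for *IDD4-DD* against WT, 0 for *IDD4-DD* against *IDD4-AA* (2 as reported) and 6 for the difference of the flg22 response (0 as reported). That scaling moved groups by -0.50 (untreated *idd4* against WT) to 0.39 (flg22 in *idd4*) on the log2 scale, and the sums rest on few genes, of which the 10 highest held 19.9% to 47.0%. A pseudocount of 0.1 FPKM gave 1 for the difference of the flg22 response. The other 35 counts, which add higher and lower members, stayed within 1.5 times the reported ones. Their parts moved, though. With flg22 in WT, 1 higher and 3 lower became 2 higher and 1 lower under both scalings. With flg22 in *idd4*, 1 higher and 3 lower became 0 higher and 5 lower for equal nuclear sums. At a floor of 5 FPKM, without *PORA*, both genotypes had 0 higher and 3 lower with flg22. The 16 shares and ratios of isoforms and subunits also stayed within 1.5 times the reported ones. The medians with flg22 were -0.71 in *idd4* and -0.18 in WT for equal nuclear sums, -0.25 in WT for the median of ratios and -0.47 in *idd4* at a floor of 5 FPKM. Scaling to nuclear sums also turned the median of the members to 0.26 in untreated *idd4* against WT, to -0.14 in *IDD4-DD* against WT and to -0.0034 in *IDD4-DD* against *IDD4-AA*. *PORA*, near 1 FPKM, is the member most limited by depth.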
